A study of Mus musculus with 12 samples.

Results

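The *Cyp3a* genes are the mouse members of cytochrome P450 subfamily 3A. The members were taken by name from the deposited expression table, which held 9 of them among 25676 genes: *Cyp3a11*, *Cyp3a13*, *Cyp3a16*, *Cyp3a25*, *Cyp3a41a*, *Cyp3a41b*, *Cyp3a44*, *Cyp3a57* and *Cyp3a59*. Gene expression was measured by bulk RNA sequencing of whole liver, 1 library per mouse, from C57BL/6 mice aged 3 to 4 months. There were 4 groups of 3 mice each: wild-type (WT) males, WT females, YAP1 knockout (KO) males and KO females. In the KO mice, YAP1 was removed with Foxa3-Cre, and no drug or other treatment is named for any group. *Foxa3* is a foregut endoderm gene, so its Cre acts in the lineage of hepatocytes and of bile duct cells from fetal life onward and not in the blood, endothelial or stellate lineages. The labels do not say whether the WT mice carried Cre or a floxed allele.

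CYP3A enzymes are haem proteins of the endoplasmic reticulum that oxidise steroids, bile acids and a wide range of drugs, using electrons passed on by the reductase POR. In hepatocytes their genes are induced by the pregnane X receptor (PXR, gene *Nr1i2*), which binds drugs and some bile acids, and by the related receptor CAR (*Nr1i3*). Several mouse *Cyp3a* genes are also known to be more abundant in adult females than in adult males, a pattern set by the sex-specific rhythm of growth hormone release. YAP1 is the transcriptional co-activator at the end of the Hippo pathway, which controls cell fate and growth in liver.

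In short, the *Cyp3a* genes showed 2 main patterns. *Cyp3a41a*, *Cyp3a41b*, *Cyp3a44* and *Cyp3a16* were abundant in WT females and near or at 0 TPM (abundance per transcript length, as a share of each library) in the other 3 groups, KO females included. *Cyp3a11* was higher in KO than in WT mice of both sexes, and made up between 91.3% and 94.1% of the family's transcripts in each KO liver. *Cyp3a59*, at far lower levels, was also higher in KO mice of both sexes on the deposited scale, past the threshold in females but not in males. *Cyp3a13* and *Cyp3a25* followed neither pattern, and *Cyp3a57* was close to 0 throughout.

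The labels were first checked on *Yap1* itself. It had 27.5, 34.9 and 34.0 TPM in WT males and 23.0, 30.03 and 27.8 TPM in WT females. In KO males it had 1.39, 0.994 and 1.80 TPM, and in KO females 3.11, 2.44 and 2.41 TPM. Every KO liver was below every WT liver. WT female replicate 3 and KO female replicate 1 have animal numbers well below the others, and WT male replicate 2 has a library number apart from the rest. The labels do not say whether either marks a batch. Hepatocyte markers were at the top of the scale in all 12 libraries, with 9 measured genes summing to between 98523.5 and 128620 TPM.

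Of the 9 members, 8 had a mean of at least 0.5 TPM over the 12 libraries and were tested with limma among 12278 genes, and *Cyp3a57* was not. *Cyp3a16*, *Cyp3a41b* and *Cyp3a44* reached that minimum only through the WT females. That these differed between groups therefore follows in part from their being tested at all. For *Cyp3a41a* the KO means, 1.83 TPM in males and 1.12 TPM in females, were above that minimum as well. All 74 values above 0 of the members other than *Cyp3a25* were whole multiples, within 0.02, of what 1 read is worth for that gene and library, so the low values below are also given as reads. The 12 values of *Cyp3a25* are not counted there, because its length was chosen so that they came out whole. The values of *Cyp3a11* are counted, although its length, that of 1 transcript, was also taken because it gave whole reads. For the 4 members high in WT females, 1 read was worth between 0.0344 and 0.0663 TPM.

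All 9 genes lie on chromosome 5. On GRCm38, 8 of them form a cluster of 768 kb in the order *Cyp3a57* (chr5:145345279-145390926, plus strand), *Cyp3a16* (chr5:145436309-145469723, minus), *Cyp3a41b* (chr5:145558664-145584730, minus), *Cyp3a41a* (chr5:145694049-145720136, minus), *Cyp3a44* (chr5:145773983-145805874, minus), *Cyp3a11* (chr5:145854426-145879964, minus), *Cyp3a25* (chr5:145977194-146009618, minus) and *Cyp3a59* (chr5:146079257-146113287, plus). *Cyp3a13* (chr5:137892932-137921619, minus) is 7.42 Mb away. The 4 members that were high in WT females are consecutive in the cluster, and *Cyp3a11* is the next gene, 48.6 kb from *Cyp3a44*. Of 18 other listed genes within 250 kb of the cluster 13 were tested, of which 2 were lower in WT males than in WT females in limma, where 4.6% of all tested genes were. Over both sexes, 7 of the 13 passed the threshold, all higher in KO than in WT, where 50.1% of all tested genes were higher and 4.82% lower.

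**Figure D1:**
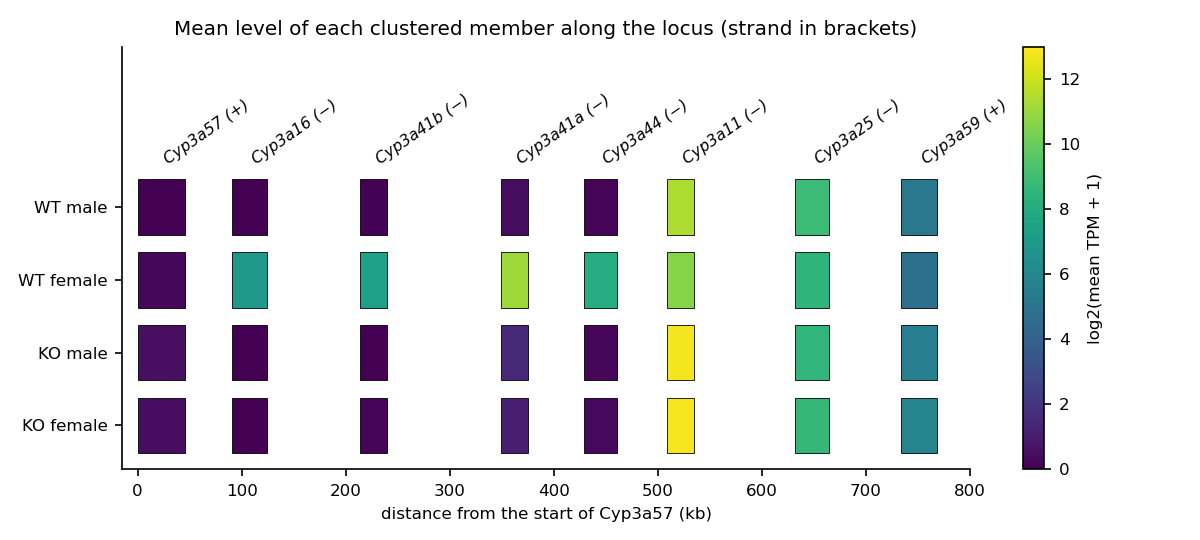
Mean level of the 8 clustered members along the locus, with distance from the start of *Cyp3a57* in kb on the x axis, 1 row per group, and colour giving log2(mean TPM + 1). *Cyp3a16*, *Cyp3a41b*, *Cyp3a41a* and *Cyp3a44*, which are consecutive, were bright only in the WT female row, and *Cyp3a11* was brightest in both KO rows.

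The sequences before the gene starts are shown because the members with the WT female pattern are close copies of one another there, and because the adjacent *Cyp3a11* has a related sequence and another pattern. Each run is the 250 bases before the start in RefSeq (GRCm38.p6), read 5′ to 3′ on the gene's own strand, which is minus for these 4, at chr5:145720137-145720386 for *Cyp3a41a*, chr5:145805875-145806124 for *Cyp3a44*, chr5:145469724-145469973 for *Cyp3a16* and chr5:145879855-145880104 for *Cyp3a11*. Capitals mark ATTGAT, the core letters bound by HNF6 (*Onecut1*) and CUX2, in whichever orientation it occurs.
Cyp3a41a: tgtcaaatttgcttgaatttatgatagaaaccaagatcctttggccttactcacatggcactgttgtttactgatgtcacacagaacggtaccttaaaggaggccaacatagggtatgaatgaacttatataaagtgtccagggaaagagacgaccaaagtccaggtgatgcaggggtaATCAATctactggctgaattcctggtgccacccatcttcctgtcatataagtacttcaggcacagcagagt
Cyp3a44: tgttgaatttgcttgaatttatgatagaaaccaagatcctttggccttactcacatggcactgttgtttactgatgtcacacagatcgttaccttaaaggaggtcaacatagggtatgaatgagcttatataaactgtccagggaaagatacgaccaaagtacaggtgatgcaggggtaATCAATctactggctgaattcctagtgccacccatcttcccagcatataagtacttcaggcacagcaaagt
Cyp3a16: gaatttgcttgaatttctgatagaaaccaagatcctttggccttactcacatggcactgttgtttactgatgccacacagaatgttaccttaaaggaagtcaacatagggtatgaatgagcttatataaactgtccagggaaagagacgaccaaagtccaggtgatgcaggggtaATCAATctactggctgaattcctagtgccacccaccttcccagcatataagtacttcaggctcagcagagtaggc
Cyp3a11: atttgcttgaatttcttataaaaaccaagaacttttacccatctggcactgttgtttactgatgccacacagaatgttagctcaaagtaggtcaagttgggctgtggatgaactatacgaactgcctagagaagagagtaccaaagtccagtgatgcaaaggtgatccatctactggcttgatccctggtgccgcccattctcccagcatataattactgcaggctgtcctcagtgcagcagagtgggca

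Over the 300-base RefSeq windows, which run from 250 bases before to 50 after the start, the promoters of *Cyp3a41a*, *Cyp3a41b*, *Cyp3a44* and *Cyp3a16* were 89.9% to 97.3% identical in pairs, with *Cyp3a41a* and *Cyp3a41b* the closest. *Cyp3a11* was 69.8% to 74.8% identical to them. ATTGAT, searched on both strands, was found in 5 of the 9 promoters and in 7.42% of all 32544 distinct promoters of that length. Its first base was at position -71 in *Cyp3a41a*, *Cyp3a41b* and *Cyp3a44*, at -75 in *Cyp3a16* and at -223 in *Cyp3a57*, counted from the start. In the alignment of *Cyp3a11* to *Cyp3a41a*, the letters under the match differed by A4C, counted from 1 at the first base of the match in *Cyp3a41a*, and *Cyp3a11* had no match in its window. The nuclear receptor half-site AGGTCA was in the promoters of *Cyp3a11*, *Cyp3a25*, *Cyp3a44*, *Cyp3a57* and *Cyp3a59* (16.2% of all promoters). The half-site AGTTCA was in those of *Cyp3a11*, *Cyp3a41a* and *Cyp3a41b* (14.0%), and TATAAA was in those of *Cyp3a11*, *Cyp3a16*, *Cyp3a41a*, *Cyp3a41b* and *Cyp3a44* (13.6%). TTGCNNAA, the C/EBP letters, was in that of *Cyp3a25* alone (10.8%). The STAT letters TTCNNNGAA (8.33%) and the TEAD letters CATTCC (14.6%) were in 0 of the 9. These matches are letters only, and near-copies hold them together.

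The transcripts are copies as well, which limits how far reads can be told apart. *Cyp3a41a* and *Cyp3a41b* transcripts were 99.7% identical, and 88.4% of the 100-base windows of *Cyp3a41a* also occurred in *Cyp3a41b*. The split between these 2 genes therefore depended on how the authors assigned shared reads, and their single values are uncertain. For the other members at most 5.61% of such windows occurred in another member, with *Cyp3a25* and *Cyp3a59* sharing the most. *Cyp3a11* shared 0.312% of its windows and *Cyp3a13* shared 0%. Over 50-base windows the shares were 28.0% for *Cyp3a59*, 26.3% for *Cyp3a25*, 18.2% for *Cyp3a44*, 14.7% for *Cyp3a11*, 10.5% for *Cyp3a16* and 0% for *Cyp3a13*. In *Cyp3a11* itself occurred 7.21% of the 50-base and 0% of the 100-base windows of *Cyp3a41a*, and 6.95% and 0.268% of those of *Cyp3a44*. The read length is not given in the sources used here. The part of such shared reads in the low KO values was not tested.

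The comparison of males with females in WT asked which members were sex-dependent in normal liver. *Cyp3a41a*, a steroid hydroxylase gene known from female liver, had 2210, 2382 and 1973 TPM in the 3 WT females and 0.0885, 0 and 0.966 TPM in the 3 WT males, which were 2, 0 and 26 reads. *Cyp3a44*, also known as a female gene, had 237, 227 and 334 TPM in WT females and 0.0465, 0 and 0.234 TPM in WT males. For both genes the WT female values lay far above the WT male values and did not overlap them. *Cyp3a41b*, the near-copy of *Cyp3a41a*, had 161, 220 and 129 TPM in WT females and 1, 0 and 2 reads in WT males. *Cyp3a16*, a gene first known from fetal and young liver, had 131, 88.0 and 177 TPM in WT females and no read in any WT male. The WT female level of *Cyp3a16* was at least 914-fold higher than a floor of 3 reads per WT male library. Within the 4 members' sum in WT females, *Cyp3a41a* made up 79.3 ± 3.30% (SD, n = 3), *Cyp3a44* 9.73%, *Cyp3a41b* 6.12% and *Cyp3a16* 4.85%.

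The opposite direction was seen for *Cyp3a11*, the main CYP3A gene of adult mouse liver and the usual readout of PXR activity. It had 3371, 2468 and 2353 TPM in WT males and 1544, 1373 and 1818 TPM in WT females, so every WT male was above every WT female. The log2 fold change of males against females was 0.78 ± 0.18 (SE) in limma (adjusted p = 0.0231). That call was lost without WT male replicate 1 (limma log2 fold change 0.62, adjusted p = 0.0893) or without WT female replicate 1 (adjusted p = 0.0833) or 2 (adjusted p = 0.112). In all, 5 of the 8 tested members passed in this comparison, 1 higher in males and 4 lower, against 5.74% of all tested genes (1.14% higher, 4.6% lower). The values of 6 of the 8 did not overlap between the sexes, against 33.5% of all tested genes. Nothing is read from these shares, because *Cyp3a16*, *Cyp3a41b* and *Cyp3a44* were tested only through the WT females. *Cyp3a25* (limma adjusted p = 0.192), *Cyp3a59* (0.184) and *Cyp3a13* (0.0679) did not pass the threshold.

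**Figure D2:**
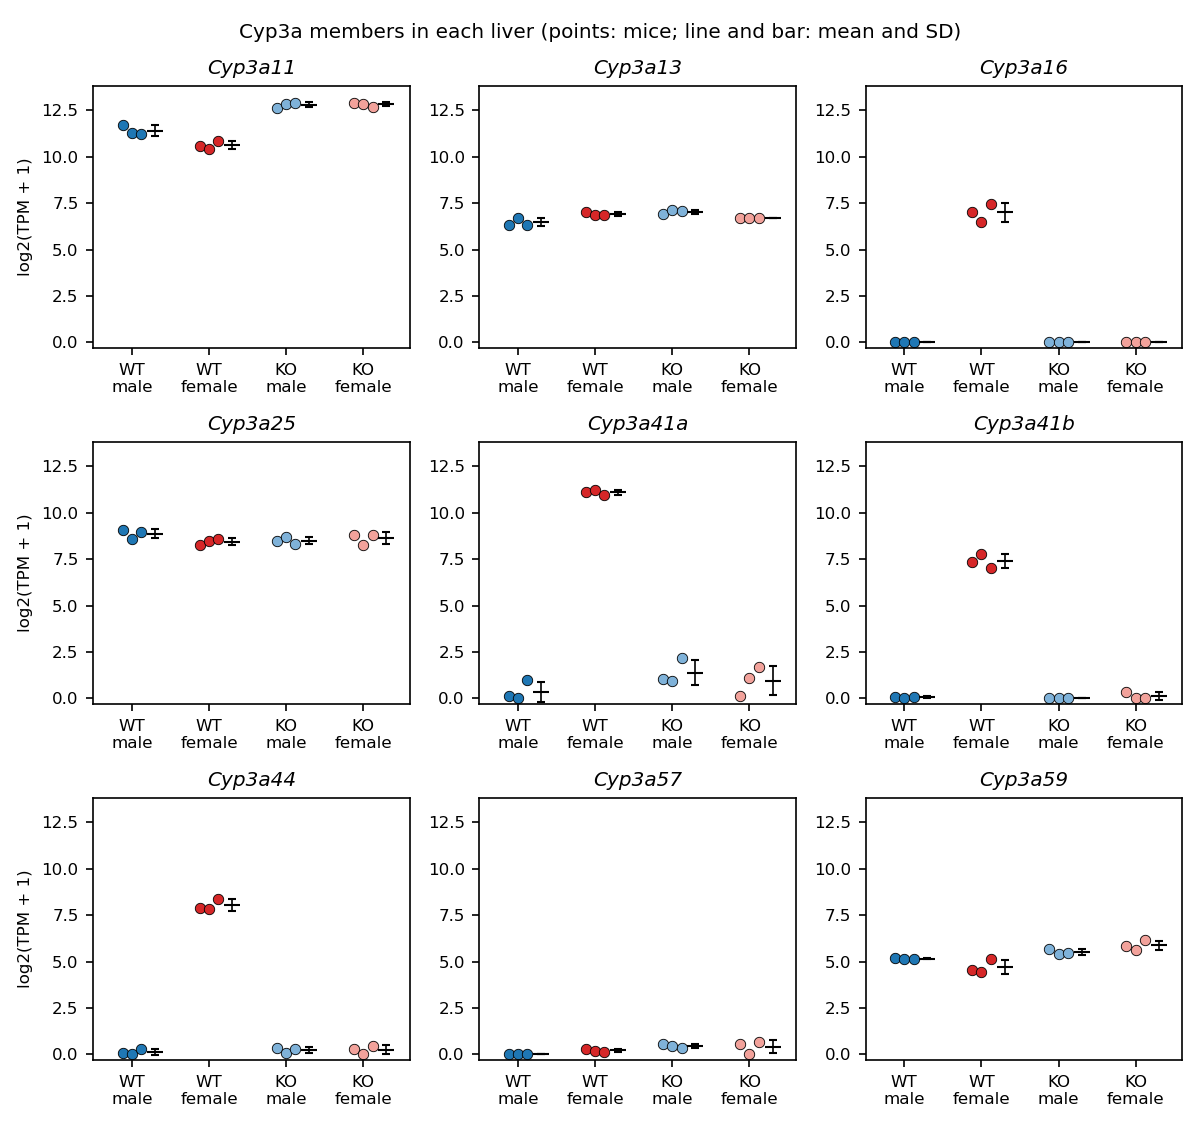
Level of each of the 9 members as log2(TPM + 1) in each liver, in 4 groups, with points for mice and a line and bar for the group mean and SD (n = 3). The 3 WT female points of *Cyp3a16*, *Cyp3a41a*, *Cyp3a41b* and *Cyp3a44* stood far above all 9 other livers, and the 6 KO points of *Cyp3a11* stood above all 6 WT points.

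The comparison of KO with WT females asked which members depended on the *Yap1* genotype in that sex. *Cyp3a41a* had 0.0845, 1.11 and 2.18 TPM in the 3 KO females (2, 22 and 48 reads), against a WT female mean of 2188 ± 205 TPM (SD, n = 3). *Cyp3a44* had 0.222, 0 and 0.382 TPM in KO females against 266 ± 59.1 TPM in WT females (SD, n = 3). *Cyp3a41b* was at 7, 0 and 0 reads in the KO females, and *Cyp3a16* had no read in any of the 6 KO livers. For *Cyp3a16* the WT female mean of 131.7 ± 44.3 TPM (SD, n = 3) was at least 801-fold higher than the floor of 3 reads per KO female library. All 4 were thus lower in each KO female than in each WT female, and the KO female values overlapped those of the males.

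On the log2(TPM + 1) scale, limma gave *Cyp3a41a* a change of -10.14 ± 0.40 (SE, adjusted p = 2.68e-09) in females. The changes of *Cyp3a44*, *Cyp3a41b* and *Cyp3a16* were -7.79, -7.26 and -6.996 (limma adjusted p of 5.34e-11, 9.28e-11 and 2.69e-10). Since the KO values lie near the pseudocount of 1 TPM, these sizes understate the ratios. The WT females are the high group here and in the comparison of the sexes in WT, so the 2 sets of fold changes share those 3 livers.

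*Cyp3a11* moved the other way in females. Its 3 KO females had 7691, 7311 and 6600 TPM, all above the highest WT female at 1818 TPM. The ratio of means was 4.56, and the log2 fold change was 2.20 ± 0.18 (SE) in limma (adjusted p = 1.69e-06). By mean level over all listed genes it ranked 75 in WT females and 19 in KO females. *Cyp3a59*, a close relative of *Cyp3a25*, was also higher in KO females, at 55.3, 48.5 and 69.9 TPM against 22.5, 20.96 and 34.8 TPM (limma log2 fold change 1.14 ± 0.19 SE, adjusted p = 0.000632). Counting these, 6 of the 8 tested members passed in females, 2 higher and 4 lower, against 33.8% of all tested genes (29.1% higher, 4.68% lower). The values of 7 of the 8 did not overlap, against 51.3%. Here too nothing is read from the shares, because *Cyp3a16*, *Cyp3a41b* and *Cyp3a44* were tested only through the WT females.

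In males, *Cyp3a11* had 6344, 7409 and 7547 TPM in KO livers, each of them above the highest WT male at 3371 TPM. The ratio of means was 2.60 and the log2 fold change 1.39 ± 0.18 (SE) in limma (adjusted p = 6.42e-05). *Cyp3a13*, a member known from liver and intestine, had 117, 138 and 131 TPM in KO males and 80.2, 104 and 80.3 TPM in WT males (limma log2 fold change 0.55 ± 0.13 SE, adjusted p = 0.00569). These were the 2 of 8 tested members that passed in males, both higher, against 46.1% of all tested genes (43.3% higher, 2.81% lower), and 3 of 8 did not overlap, against 54.3%. The 4 members with the WT female pattern were at or near 0 in males of both genotypes, which leaves no room for a decrease. *Cyp3a41a* had 20, 18 and 63 reads in KO males, and its log2 fold change of 1.02 ± 0.40 (SE) in males had a limma adjusted p of 0.0533. Without WT male replicate 3, which held 26 of that group's reads, it was 1.32 (limma adjusted p = 0.0230), and without KO male replicate 3, which held 63 of its group's reads, it was 0.62 (adjusted p = 0.228).

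Most genes were shifted upward on the deposited scale, which bears on the smaller differences. For KO against WT, the tested genes had a median log2 fold change of 0.35 over both sexes, 0.44 in males and 0.27 in females, and after median-of-ratios rescaling it was -0.04, -0.04 and -0.03. *Cyp3a11* stayed higher in KO after rescaling, by 0.81 in males (limma adjusted p = 0.00863) and 1.84 in females (2.67e-05). *Cyp3a13* in males did not, with -0.02 (limma adjusted p = 0.932), and in females it passed after rescaling (-0.57, adjusted p = 0.0224) but not before (-0.22, adjusted p = 0.231). On the deposited scale its 3 KO females, at 101 to 104 TPM, were still all below the 3 WT females, at 114 to 130 TPM. *Cyp3a59* kept its rise in females after rescaling (0.80, limma adjusted p = 0.0156). In males it had 41.3 to 51.0 TPM in KO and 33.8 to 35.2 TPM in WT, with no overlap, and its log2 fold change was 0.37 (limma adjusted p = 0.127) on the deposited scale and -0.19 (adjusted p = 0.548) after rescaling. *Cyp3a25*, an adult liver member, had 530, 381 and 488 TPM in WT males and 350, 415 and 322 TPM in KO males. It passed in males only after rescaling (limma log2 fold change -0.94, adjusted p = 0.00323), against -0.36 (adjusted p = 0.133) before it. In females it had 303, 356 and 389 TPM in WT and 446, 305 and 451 TPM in KO, and it passed under neither scale. The 4 members with the WT female pattern were lower in KO females under both.

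**Figure D3:**
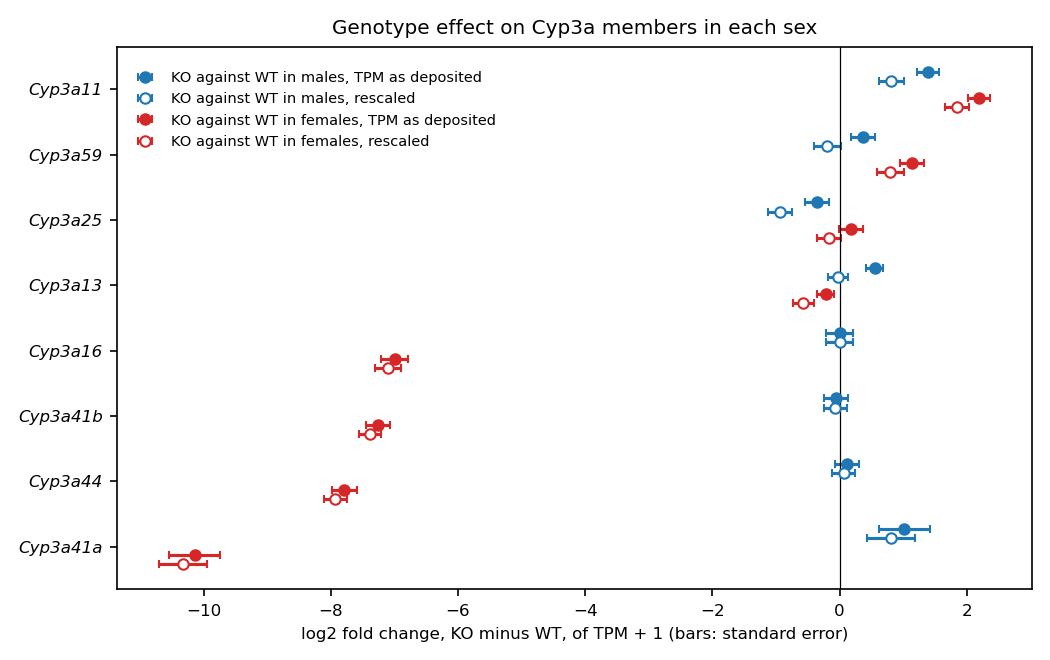
Genotype effect on the 8 tested members in each sex, as the log2 fold change of KO against WT on the x axis with standard errors, for TPM as deposited (filled) and after median-of-ratios rescaling (open). *Cyp3a41a*, *Cyp3a44*, *Cyp3a41b* and *Cyp3a16* lay between -10.33 and -6.996 in females and near 0 or, for *Cyp3a41a*, at 1.02 (0.81 rescaled) in males, while *Cyp3a11* lay to the right of 0 in both sexes.

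Whether the genotype effect differed between the sexes was tested directly, as the male effect minus the female effect. It passed for 4 of the 8 tested members (0.912% of all tested genes passed): *Cyp3a44* (7.90 ± 0.27 SE, limma adjusted p = 3.37e-09), *Cyp3a41b* (7.20, 7.72e-09), *Cyp3a16* (6.996, 2.00e-08) and *Cyp3a41a* (11.15, 1.11e-07). Nothing is read from that share, because the 4 had almost no level to lose in males. In addition, *Cyp3a16*, *Cyp3a41b* and *Cyp3a44* were tested only through the WT females. The difference thus repeats the WT female level, and for *Cyp3a16* it has the same size, 6.996, as the change in females and the difference between the sexes in WT. For *Cyp3a11* the difference was -0.80 ± 0.25 (SE) and did not pass after adjustment (limma adjusted p = 0.292, unadjusted p = 0.00680), so a larger rise in females than in males was not shown. *Cyp3a13* had 0.77 ± 0.19 (SE, limma adjusted p = 0.112), and passed without WT male replicate 2 (0.89, adjusted p = 0.0344).

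Between KO males and KO females 0 of the 8 tested members passed the threshold in limma, against 0.0814% of all tested genes. *Cyp3a13* alone had an unadjusted p under 0.05 (limma unadjusted p = 0.0333, adjusted p = 0.859), and it was also the 1 member whose values did not overlap, against 9.5% of all tested genes. Its 3 KO females had 103, 101 and 104 TPM. *Cyp3a11* differed by -0.02 ± 0.18 (SE, limma adjusted p = 0.987) and *Cyp3a41a* by 0.43 ± 0.40 (adjusted p = 0.887). A miss of the threshold with 3 mice a group does not show equal levels.

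Over both sexes, 6 of 8 tested members passed for KO against WT, 2 higher (*Cyp3a11* and *Cyp3a59*) and 4 lower, against 54.9% of all tested genes (50.1% higher, 4.82% lower). The log2 fold change of *Cyp3a11* was 1.79 ± 0.17 (SE) in limma (adjusted p = 1.53e-06), and that of *Cyp3a59* was 0.75 ± 0.17 (adjusted p = 0.00203). *Cyp3a59* did not pass after rescaling (0.30, limma adjusted p = 0.255), and *Cyp3a25* passed only then (-0.55, adjusted p = 0.0189). The KO and WT values of *Cyp3a11* and *Cyp3a59* did not overlap, 2 of 8 against 30.6%. Nothing is read from the share that passed, because *Cyp3a16*, *Cyp3a41b* and *Cyp3a44* were tested only through the WT females. For the 4 members that were lower, this average over the sexes mixes a near-total loss in females with values near 0 in males. *Cyp3a41a* had -4.56 ± 1.55 (SE, limma adjusted p = 0.0235), a call that was lost on leaving out any single female (limma adjusted p between 0.0501 and 0.0571).

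In the authors' deposited table, 5 of the 9 members have an FDR p-value below 0.05, against 24.2% of 17332 genes. For *Cyp3a11* the authors' deposited table gives 1.05 in log2 units with 0 printed as the FDR p-value, and for *Cyp3a16* -3.88 and 0.03. For *Cyp3a41a* the authors' deposited table gives 3.10 (FDR p-value 0.03), opposite in sign to its TPM means over both sexes, and for *Cyp3a44* it gives 0.51 (0.79). The near-copy *Cyp3a41b* has -6.23 with a printed value of 0 in the authors' deposited table. How that table weighed the sexes is not given in the sources used here. Its sign matched the sign of the limma value in 5 of the 8 tested members, and differed for *Cyp3a13*, *Cyp3a41a* and *Cyp3a44*.

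*Cyp3a57* stayed out of the tests. It had 0 reads in the 3 WT males, 5, 3 and 3 in WT females, 9, 7 and 5 in KO males, and 11, 0 and 12 in KO females. The highest of these values was 0.564 TPM. The KO males did not overlap the WT males, while the KO and WT females did overlap. Without the filter on low values limma tested it too, and it was higher in KO over both sexes (log2 fold change 0.32 ± 0.10 SE, adjusted p = 0.0230) and in males (0.46 ± 0.14 SE, adjusted p = 0.0256) but did not pass in females (0.19, adjusted p = 0.377). The authors' deposited table gives it 2.58 with an FDR p-value of 0.04. These differences rest on at most 12 reads in a library.

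The family as a whole was followed by summing TPM over the 9 members, as values with no test. The sum was 4017, 2988 and 2956 TPM in WT males and 4738, 4781 and 4970 TPM in WT females. In KO males it was 6864, 8005 and 8047 TPM, and in KO females 8297, 7767 and 7228 TPM. All 6 KO livers were above all 6 WT livers, and WT females were above WT males. As a share of all transcripts the sum was 0.332% in WT males, 0.483% in WT females, 0.764% in KO males and 0.776% in KO females. The ratio of the KO to the WT mean was 2.30 in males and 1.61 in females, or 1.54 and 1.26 after rescaling.

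The family total was built from different genes in WT and KO females. In WT females the 4 members with the WT female pattern gave 2738, 2917 and 2612 TPM, which was 57.1 ± 4.27% of the family (SD, n = 3). *Cyp3a41a* alone was at 45.4 ± 5.18% and *Cyp3a11* at 32.6 ± 3.93%. In KO females those 4 gave 0.601, 1.11 and 2.56 TPM, and *Cyp3a11* made up 92.7 ± 1.41% of the family. *Cyp3a11* was 82.0 ± 2.23% of the family in WT males and 92.9 ± 0.748% in KO males. The share of *Cyp3a25* was 14.2% in WT males, 7.22% in WT females, 4.76% in KO males and 5.18% in KO females. In females the 5 other members summed to 2074 ± 255 TPM in WT and 7762 ± 535 TPM in KO (SD, n = 3), so the KO total was higher although 4 members were near 0.

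**Figure D4:**
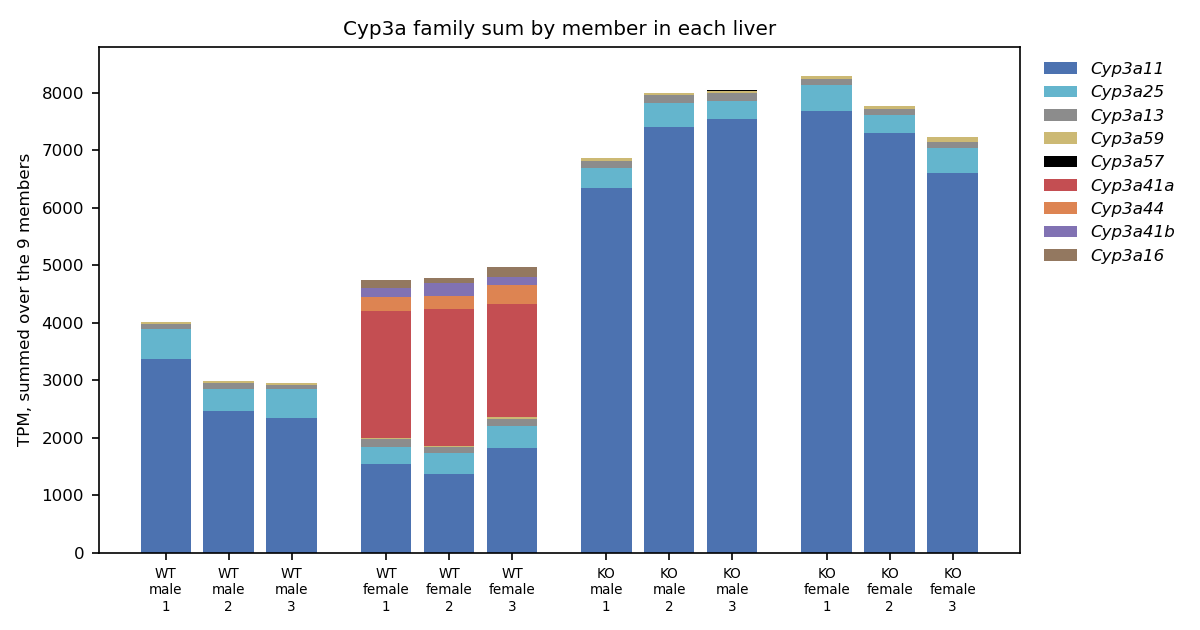
TPM summed over the 9 members in each liver, stacked by member, with 1 bar per mouse. Red, orange, purple and brown segments (*Cyp3a41a*, *Cyp3a44*, *Cyp3a41b* and *Cyp3a16*) are visible in the 3 WT females only, and the blue *Cyp3a11* segment filled at least 91.3% of each of the 6 KO bars.

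These are values of whole liver, in which fewer cells of a type and less RNA per cell cannot be told apart. Markers of other cell types moved with genotype, counted here over both sexes, where 50.1% of all tested genes were higher in KO and 4.82% lower, and after rescaling 20.6% and 18.8%. Of 5 tested cholangiocyte markers 3 were higher in KO and 1 was lower (2 and 1 after rescaling), and the 8 listed summed to 37.7 to 68.2 TPM per WT liver and 265 to 730 TPM per KO liver. All 8 Kupffer cell and macrophage markers were higher in KO, 7 of them after rescaling (72.1 to 235 TPM in WT, 344 to 713 TPM in KO), as were 6 of 8 stellate cell and fibroblast markers, with 4 higher and 1 lower after rescaling (63.8 to 176 TPM in WT, 177 to 428 TPM in KO). For endothelial cells 1 of 7 was higher and 2 were lower, or 0 and 3 after rescaling (49.8 to 78.1 TPM in WT, 29.96 to 119 TPM in KO). For neutrophils 3 of 4 tested were higher and 0 lower, or 1 and 0 after rescaling (0.294 to 21.2 TPM in WT, 12.4 to 46.1 TPM in KO), and for lymphocytes 0 of 3 tested passed (1.72 to 5.80 TPM in WT, 1.59 to 5.57 TPM in KO). The intestinal markers, checked because *Cyp3a* genes are active in gut, had *Vil1*, *Sis*, *Lct* and *Alpi* at 0 in some libraries. Their 5 summed to 45.8 to 91.6 TPM in WT and 21.4 to 33.3 TPM in KO, with no overlap, and the 1 that was tested was lower in KO. Of the 9 hepatocyte markers 4 were higher and 2 lower in KO, or 1 and 3 after rescaling, and their sum overlapped between genotypes (100636 to 128620 TPM in WT, 98523.5 to 119109 TPM in KO). The major urinary protein genes, a large male-biased hepatocyte product, held 10.0% to 15.8% of all TPM in WT males, 3.14% to 5.52% in WT females and at most 0.836% in KO livers. The part of these shifts in the *Cyp3a* values was not tested.

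Among the receptors and factors known to act on *Cyp3a* genes, 9 of 27 tested were higher in KO over both sexes and 2 were lower, where 50.1% of all tested genes were higher and 4.82% lower, and the list's median change in log2 units was 0.11, where that of all tested genes was 0.35. After rescaling, 0 were higher and 11 were lower, where 20.6% of all tested genes were higher and 18.8% lower (39.4% in all). *Nr1i2*, which encodes PXR, had 47.8, 33.8 and 48.8 TPM in WT males and 50.6, 65.1 and 39.1 TPM in WT females. It had 72.1, 74.8 and 88.4 TPM in KO males and 58.3, 78.7 and 72.4 TPM in KO females (limma log2 fold change over both sexes 0.65, adjusted p = 0.00258, and 0.19, adjusted p = 0.275, after rescaling). *Nr1i3*, which encodes CAR, had 226, 240 and 102 TPM in WT females and 41.8, 30.6 and 55.2 TPM in KO females, with no overlap (limma log2 fold change -2.07, adjusted p = 0.00433). In males its values overlapped, at 32.5, 22.6 and 101 TPM in WT, and the change was -0.01 (limma adjusted p = 0.988). Over both sexes the *Nr1i3* change was -1.04 (limma adjusted p = 0.0527), and -1.50 after rescaling (adjusted p = 0.0103). The difference of the *Nr1i3* effect between the sexes did not pass (limma adjusted p = 0.310). The largest changes past the threshold in this list were *Nfil3*, a repressor of clock output (1.28), the fatty acid receptor *Ppara* (-1.27), the acute-phase factor *Cebpd* (1.17) and *Foxa3* itself (0.88), of which *Ppara* alone passed after rescaling. *Nfil3* had 97.3, 69.0 and 7.18 TPM in WT males and 9.43 to 14.9 TPM in WT females, against 31.9 to 91.3 TPM in the 6 KO livers, so its values overlapped. It passed over both sexes (limma adjusted p = 0.0495) but in neither males (0.406) nor females (0.0690) alone. *Dbp*, a clock output factor of the same list whose change did not pass, had 189, 213 and 175 TPM in WT females and 10.6, 0.960 and 33.4 TPM in KO females. In WT males *Dbp* had 0.745, 1.15 and 206 TPM, so WT male replicate 3 was near the WT females in *Dbp*, and in *Nfil3* it was also far from the other WT males. The part of such differences between livers in the *Nr1i3* and *Nfil3* values was not tested.

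For the growth hormone pathway and the known sex-dependent regulators, 6 of 21 tested genes were higher and 6 lower in KO over both sexes (median -0.29 against 0.35 for all tested genes, of which 50.1% were higher and 4.82% lower). After rescaling 2 were higher and 8 lower, against 20.6% and 18.8% of all tested genes. Within females 12 were lower and 4 higher, against 4.68% and 29.1%. Within males 5 were lower and 8 higher, against 2.81% and 43.3%. *Cux2*, a repressor known to be specific to female liver, had 5.86, 16.7 and 17.6 TPM in WT females and 0.0690, 0.0352 and 0.0993 TPM in WT males. In KO females it had 2.68, 2.32 and 5.68 TPM, all below the WT females (limma log2 fold change -1.60, adjusted p = 0.00494), but above the KO males at 1.35, 0.591 and 0.385 TPM. The feedback inhibitor *Socs3* was higher over both sexes (2.68), and the cytokine receptor *Lifr* (-2.24) and the IGF carrier subunit *Igfals* (-1.60) were lower. The genotype effect differed between the sexes for *Tox*, *Trim24*, *Prlr* and *Ttc39c*. As the male minus the female effect it was 1.82, 1.71 and 1.98 for the first 3, and -1.16 for *Ttc39c*. Of the 21 tested genes 3 were thus above 0 and 1 below, where 0.912% of all tested genes passed. For *Cux2* the difference did not pass (limma adjusted p = 0.0684).

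Of the enzymes that serve P450s, 6 of 19 tested electron donors and haem genes were higher in KO over both sexes and 1 lower (median 0.17), a smaller share higher than the 50.1% of all tested genes (4.82% lower). After rescaling 3 were higher and 10 lower, against 20.6% and 18.8%. *Por*, the reductase that feeds electrons to CYP3A enzymes, had 100, 67.4 and 212 TPM in WT males and 348, 400 and 272 TPM in WT females. In KO males it had 266, 345 and 203 TPM and in KO females 183, 256 and 393 TPM. It was lower in WT males than in WT females (limma log2 fold change -1.56, adjusted p = 0.0296), a call that was lost after rescaling (-1.34, adjusted p = 0.0678). *Por* was higher in KO males than in WT males (limma log2 fold change 1.22, adjusted p = 0.0183), although the values overlapped, and this call was lost after rescaling as well (0.65, adjusted p = 0.249). It did not pass in females (-0.35, limma adjusted p = 0.514) or over both sexes (0.44, adjusted p = 0.282), and the effects in the 2 sexes did not differ past the threshold (adjusted p = 0.363). The haem oxygenase *Hmox1* (1.93), the epoxide hydrolase *Ephx1* (1.54) and the NADPH source *G6pdx* (1.13) were higher in KO, and *Cpox* of haem synthesis was lower (-0.93).

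Other known targets of PXR or CAR moved in both directions, 13 of 27 tested higher and 7 lower in KO over both sexes (median 0.50 against 0.35 for all tested genes). The share higher was close to the 50.1% of all tested genes, of which 4.82% were lower. After rescaling 11 were higher and 10 lower, against 20.6% and 18.8%. The glutathione transferase *Gstm3* went from 99.1 ± 37.9 to 3016 ± 478 TPM in males (SD, n = 3), and had the largest change of the list over both sexes (limma log2 fold change 5.28, adjusted p = 5.26e-10). *Akr1b7*, an aldo-keto reductase (3.07), and *Cyp2c55* (2.96) were also higher. *Cyp2b13*, a P450 gene of female liver, had 296 ± 40.5 TPM in WT females, 3.45 ± 1.15 TPM in KO females and 0.0979 ± 0.130 TPM in WT males (SD, n = 3). The genotype effect on *Cyp2b13* differed between the sexes (6.67, limma adjusted p = 2.28e-08), as it did for 3 others of the list, *Cyp2b9*, *Sult2a1* and *Sult1d1*. The last of these did not pass after rescaling (limma adjusted p = 0.325). That was 4 of 27 tested, where 0.912% of all tested genes passed. Male group means were at most 0.643 TPM for *Cyp2b13* and 0.359 TPM for *Sult2a1*. Almost no level could be lost in males there, so for these genes the difference repeats the WT female level.

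Genes of the pericentral hepatocytes, the zone where CYP3A enzymes are mostly made, counted 10 of 24 lower and 3 higher in KO over both sexes (median -0.29), where 4.82% of all tested genes were lower and 50.1% higher. After rescaling 16 were lower and 1 higher, against 18.8% and 20.6%. *Cyp2e1*, the ethanol-oxidising P450, had 5611 ± 737 TPM in WT males and 1510 ± 495 TPM in KO males (SD, n = 3), and its log2 fold change over both sexes was -2.20 in limma (adjusted p = 2.35e-07). *Cyp2c54* (-2.68), *Cyp2c50* (-1.79) and *Cyp1a2* (-1.46) were lower too. *Cyp3a11* was higher in the same livers.

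**Figure D5:**
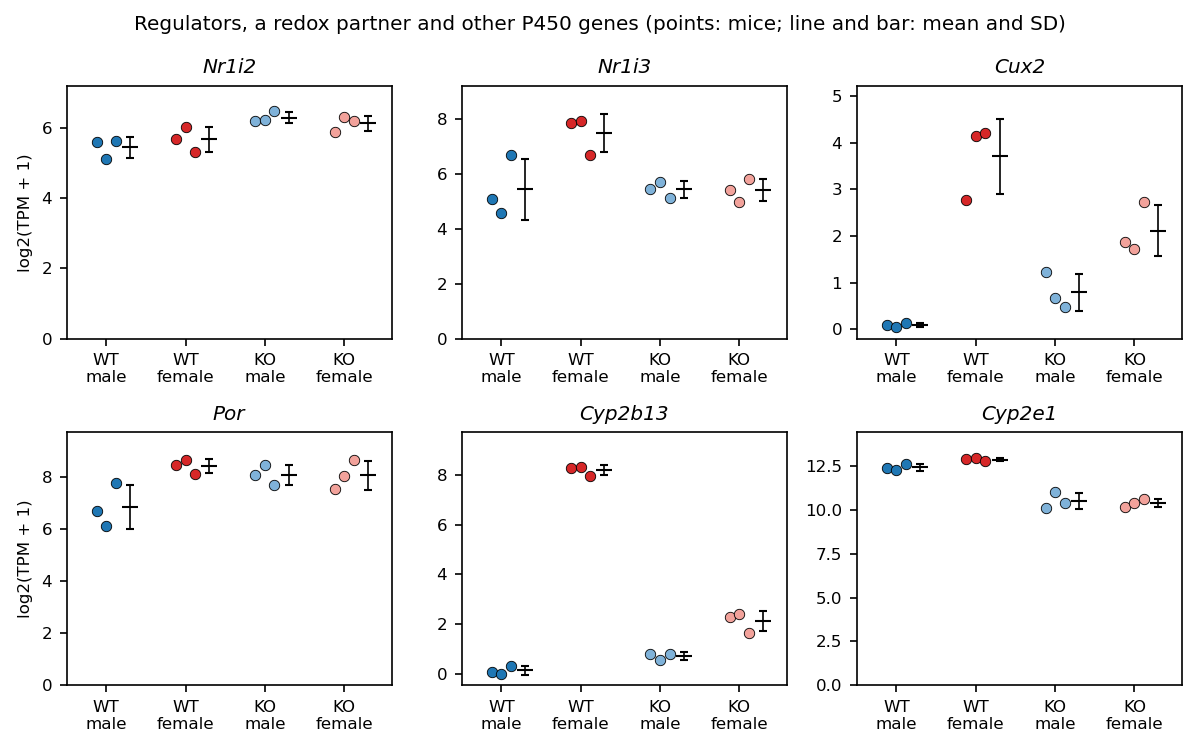
Levels of *Nr1i2*, *Nr1i3*, *Cux2*, *Por*, *Cyp2b13* and *Cyp2e1* as log2(TPM + 1) in each liver, with points for mice and a line and bar for the group mean and SD (n = 3). *Cyp2b13* stood high in WT females only, *Cyp2e1* was lower in all 6 KO livers, and *Cux2* in KO females lay between the WT females and both groups of males.

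The genes whose pattern over the 12 livers was most like that of 2 of these levels were found by the root mean square difference of log2(TPM + 1), each gene centred on its own mean. For *Cyp3a11* they were *Sema6b* (0.223), *Nek2* (0.229), *Rhbdf2* (0.230), *Pawr* (0.247) and *Plekha1* (0.247), where the median over all tested genes was 0.850. *Rhbdf2*, for instance, had 5.91 ± 1.54 TPM in WT males and 19.2 ± 2.38 TPM in KO males (SD, n = 3). For the sum of the 4 members with the WT female pattern they were *Cyp2c69* (0.984), *Sult3a1* (1.19), *Cyp2b13* (1.58), *A1bg* (1.84) and *Sult2a1* (1.86), against a median of 4.58. *Cyp2c69* had 1451 ± 216 TPM in WT females and 4.73 ± 3.29 TPM in KO females (SD, n = 3). *Sult3a1*, a sulfotransferase of female liver, had 257 ± 22.9 TPM in WT females (SD, n = 3) and was listed at 0 in every WT and KO male. These are likenesses of level over 12 livers that share 4 groups, and they carry no test.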

How the data were processed

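Livers of 12 mice were measured by bulk RNA sequencing, and groups were taken from the sample titles. Replicate numbers follow the order of deposition and pair no samples. Each library came from its own mouse, per the labels. The authors deposited expression as TPM, 1 column per mouse, per the file headers, and 0 per-sample columns had no matching sample. The authors' own log2 fold changes, signed fold changes and FDR p-values, also in the deposited table, were read for comparison only. The tool edgeR and the build GRCm38 are named in the submitters' processing notes without a role. The aligner, the counter, the annotation, the use of strand and the treatment of reads that fit several genes are not given in the sources used here, and the number of mapped reads per library is not stated.

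TPM were analysed as log2(TPM + 1), with a pseudocount of 1, for genes with a mean of at least 0.5 TPM over the 12 libraries. Fold changes are on that scale, which understates changes of low genes. Each gene was fitted in limma 3.58.1 (R 4.3.3) with an intensity trend, two-sided, with Benjamini-Hochberg adjustment over all 12278 tested genes and a threshold of 0.05. KO against WT over both sexes had sex as a covariate, and the other comparisons came from 1 model of the 4 group means. The script was tested on simulated data. Reads were recovered from TPM steps with GENCODE release 21 lengths, of all exons except for *Cyp3a11* and *Cyp3a25*. For *Cyp3a11* all exons (5093 bases) did not give whole reads, and the length of 1 transcript that did, 2344 bases, was taken. The 2003 bases of *Cyp3a25* were found by a search for the whole length that gives whole reads. A floor of 3 reads per library was used where all libraries of a group were at 0, and it covers counting error only. Promoters came from RefSeq (GRCm38.p6), and sequence identity is over a global alignment made with Biopython 1.88, of the longest coding transcripts of GENCODE release 21 or of the promoter windows.

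Alternatives were median-of-ratios rescaling of the TPM columns, rescaling without the 20 most abundant genes, a pseudocount of 0.1 or 5, no filter or one at a mean of 2 TPM, no intensity trend, a covariate for the 2 livers with the lowest animal numbers, and leaving out each library. The genes named are the 9 members, *Nr1i2*, *Nr1i3*, *Por*, *Cux2*, *Yap1*, up to 4 genes of each of 5 lists with the largest change past the threshold over both sexes, and the 5 genes nearest in pattern to *Cyp3a11* and to the sum of the 4 members high in WT females. Genes of a list whose genotype effect differed between the sexes, and *Dbp*, are named outside that rule, after their values were seen. 1 result under the rule is not reported here. The members, lists and tests were chosen with earlier results of these data known.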

Additional observations from a re-analysis of the deposited data

Results flagged for a closer look

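The genotype effect on 4 members differed between the sexes by a direct test of that difference in limma. The male effect minus the female effect, in log2 units of TPM + 1, was 11.15 for *Cyp3a41a*, 7.90 for *Cyp3a44*, 7.20 for *Cyp3a41b* and 6.996 for *Cyp3a16*. All 4 were high in the 3 WT females and near or at 0 in the 3 WT males, 3 KO males and 3 KO females. With males near 0 in both genotypes no decrease could be seen there, so these values follow from the WT female level. In addition, *Cyp3a16*, *Cyp3a41b* and *Cyp3a44* were tested only because the WT females are high. For *Cyp3a16* the size is 6.996 in this test, in KO against WT females and between the sexes in WT. The 4 values are not independent of one another, because *Cyp3a41a* and *Cyp3a41b* share most of their sequence and all 4 rest on the same 12 livers.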

How the results depend on the processing

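Of 384 recomputed values of members, counts and sums, 368 kept their direction and side of the threshold under other settings than leaving out a library, and 555 of 576 did so when 1 library was left out. Median-of-ratios rescaling gave 2932 genes past the threshold in males, against 5663. It turned the sign of *Cyp3a13* over both sexes (-0.30) and in males (-0.024), of *Cyp3a59* in males (-0.19) and of *Cyp3a25* in females (-0.17). It moved the family sum to 4171 TPM in WT males, 5186 in WT females, 6423 in KO males and 6526 in KO females, and the sum of the 4 members in WT females to 2957 TPM. Rescaling without the 20 most abundant genes gave family sums of 5130, 7477, 11099.8 and 11480.2 TPM in the same order, and 4266 TPM for the 4 members in WT females. With a pseudocount of 0.1 *Cyp3a41a* over both sexes lost its call (-4.42, limma adjusted p = 0.0804) and in males gained one (2.57, adjusted p = 0.0375). With a covariate for the 2 livers with the lowest animal numbers *Cyp3a41a* also passed in males (limma adjusted p = 0.0397). Without a filter on low values *Cyp3a57* was tested and passed over both sexes and in males, and *Cyp3a11* lost its call between the sexes in WT (limma adjusted p = 0.0684).

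The comparison of males with females in WT gave 705 genes past the threshold, 409 with that covariate, and between 291 (without WT male replicate 2) and 1698 (without WT male replicate 3) when 1 library was left out. It gave 397 without WT male replicate 1, and 309, 302 and 451 without WT female replicates 1, 2 and 3. In KO the sexes gave 6 to 10 genes and the interaction 75 to 176, the last without WT male replicate 3. Members past the threshold were 5 to 6 over both sexes, 2 to 3 in males, 6 in females, 4 to 6 between the sexes in WT, 0 between the sexes in KO and 4 to 5 for the interaction. *Cyp3a41a* passed in males without KO female replicate 1 (limma adjusted p = 0.0271) or 3 (0.0397), or without KO male replicate 2 (0.0437), and its log2 fold change there was 0.62 without KO male replicate 3 (0.228). *Cyp3a13* passed between the sexes in WT without WT male replicate 2 (-0.57, limma adjusted p = 0.0364). Between the sexes in KO the sign turned for *Cyp3a11* (0.056 with that covariate, and from -0.083 to 0.057 when 1 library was left out, with 0.027 and 0.057 without KO female replicate 1 or KO male replicate 1) and *Cyp3a44* (0.10 at a pseudocount of 0.1, 0.087 with the covariate, and from -0.136 to 0.098 when 1 library was left out, above 0 without KO female replicate 1 or 3 or KO male replicate 2). *Cyp3a16*, at 0 otherwise, was 0.12 with that covariate, and *Cyp3a41b* was 0 without KO female replicate 1. For these changes the cause was not tested.

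No paired analysis was possible because the labels give animal numbers and no replicate numbers. The limits are 3 mice per group, values that are shares of a library, and reads that members can share, above all *Cyp3a41a* and *Cyp3a41b*. The 2 livers with the lowest animal numbers are 1 WT and 1 KO female, too few for values within them.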
